A study of Mus musculus with 4 samples.

Results

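The genes described here are the histone genes of the mouse Hist1, Hist2, Hist3 and Hist4 clusters, measured in forelimb RNA of Shh null and wild-type embryos. They were chosen by symbol and level: every row whose symbol begins with Hist1h, Hist2h, Hist3h or Hist4h, with a value of at least 1 CPM (counts per unit of TMM-scaled library size, TMM being a scaling that sets the bulk of genes level between libraries) in at least 2 of the 4 libraries. The symbols matched 63 of the 17712 rows, and 59 passed the level, 6 of type H1, 13 of H2a, 16 of H2b, 12 of H3 and 12 of H4. The 4 rows under the level were Hist1h2aa, Hist1h2ba, Hist1h4m and Hist2h2aa2. The member nearest the limit was Hist1h4n, whose second highest value was 1.01 CPM, and the nearest row outside it was Hist1h4m, at 0.229 CPM.

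The Shh null group held 2 libraries and the wild-type group 2, all from forelimbs of Swiss Webster embryos labelled E10.5 (embryonic day) in the sample source and E10.25, with 33 to 35 somites, in the age field. The title calls the embryos littermates and the design text calls the libraries of a genotype technical replicates, so each p-value below is set against a spread between libraries that may be technical only. The sources used here do not give the Shh allele, how many embryos went into a library, or whether RNA was selected by its poly(A) tail. Shh encodes the ligand that the posterior margin of the limb bud secretes.

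Histone proteins package DNA, and a cell must make a new set each time it copies its genome. The genes of the histone clusters supply most of it. H2A, H2B, H3 and H4 form the core around which DNA winds, and H1 binds the linker DNA between cores. Their transcription rises on entry into S phase under the coactivator NPAT. Most of their mRNAs have no introns and end in a short stem-loop, bound by SLBP, in place of a poly(A) tail, and they are degraded when DNA synthesis stops. In a growing limb bud, where many cells divide, these mRNAs are abundant. In RNA from a whole tissue, fewer cells in S phase and less histone mRNA per such cell cannot be told apart.

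The stem-loop is printed because it sets these mRNAs apart from nearly all others. The search took 16 bases on the sense strand of annotated transcripts: a stem of 6 bases that begins GG, a loop of 4 bases that begins TT, and the exact complement of the stem. It was found in 39 of the 59 genes, against 185 of 55450 annotated genes (0.334%). By type, 4 of 6 H1 genes, 7 of 13 H2a genes, 10 of 16 H2b genes, 8 of 12 H3 genes and 10 of 12 H4 genes held it. No match says only that these letters are not in the annotated transcript. The 6 forms found, with the stem in capitals, were these.

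22 genes of types H1, H2a, H2b and H3, Hist1h2ab and Hist1h3b among them: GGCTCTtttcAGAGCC
6 genes of type H4, Hist1h4d and Hist4h4 among them: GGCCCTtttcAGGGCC
6 genes of types H1, H2b and H3, Hist1h2bb, Hist1h3c and Hist1h3e among them: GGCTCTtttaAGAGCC
Hist1h4i and Hist2h4: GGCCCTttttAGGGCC
Hist1h4b and Hist1h4j: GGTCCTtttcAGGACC
Hist2h2ac: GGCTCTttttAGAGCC

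The forms fell along histone type. All 10 H4 genes with a match carried a stem that no other type carried, and no H4 gene carried the commonest form. The loop varied only in its last base.

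Start-site windows in the RefSeq table (build GRCm38.p6, 250 bases before to 50 bases after the annotated start) were found for 53 of the 59 genes. The CCAAT box, searched as CCAAT on both strands, lay in 45 of the 53, against 37.4% of all 32851 windows. It was in all 6 H1 windows, all 13 H2a windows, all 13 H2b windows and all 10 H3 windows, but in 3 of the 11 H4 windows. TATAA, on both strands, was in 42 windows (24.9% of all windows). The octamer ATTTGCAT, on both strands, was in 12 windows (1.7% of all windows), 6 of them H2a and 6 H2b. One window of each of 3 types shows these arrangements, with each match in capitals. Hist1h2ab is the gene that carries the clearest difference between genotypes. Hist1h2bb is an H2b gene of the same cluster. Hist1h4d is the H4 gene with the most reads, and its capitals TTATAA are a TATAA match on each strand that overlap.

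Hist1h2ab, chr13:23750838-23751137, plus strand, GRCm38.p6: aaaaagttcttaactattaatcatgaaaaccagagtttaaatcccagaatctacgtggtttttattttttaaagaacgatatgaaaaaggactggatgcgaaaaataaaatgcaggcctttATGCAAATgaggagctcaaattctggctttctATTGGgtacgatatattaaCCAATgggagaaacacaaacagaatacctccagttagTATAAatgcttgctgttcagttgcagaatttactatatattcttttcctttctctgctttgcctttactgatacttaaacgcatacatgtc
Hist1h2bb, chr13:23746484-23746783, plus strand, GRCm38.p6: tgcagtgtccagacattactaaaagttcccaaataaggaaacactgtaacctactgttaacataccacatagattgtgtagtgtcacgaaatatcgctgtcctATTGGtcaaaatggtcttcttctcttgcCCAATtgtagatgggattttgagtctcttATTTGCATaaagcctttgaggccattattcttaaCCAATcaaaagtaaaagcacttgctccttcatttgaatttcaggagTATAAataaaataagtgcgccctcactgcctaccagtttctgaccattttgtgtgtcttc
Hist1h4d, chr13:23581318-23581617, plus strand, GRCm38.p6: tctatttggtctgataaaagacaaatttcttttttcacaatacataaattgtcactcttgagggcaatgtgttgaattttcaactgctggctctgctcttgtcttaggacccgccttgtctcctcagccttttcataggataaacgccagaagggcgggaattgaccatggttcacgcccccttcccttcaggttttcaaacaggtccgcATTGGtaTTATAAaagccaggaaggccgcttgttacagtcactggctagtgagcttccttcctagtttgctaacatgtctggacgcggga

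The octamer and the CCAAT boxes stood upstream of the TATAA in the H2a and the H2b window, and the H4 window held no octamer. These matches are letters in a window and were not tested as binding sites.

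The genes lie in 4 clusters (GENCODE M21 annotation, mouse build GRCm38, the build the submitters' processing notes name as mm10). The Hist1 cluster on chromosome 13, from 21715763 to 23764406, held 47 of the 59 genes. Hist2 on chromosome 3 (96219865 to 96270132) held 8, Hist3 on chromosome 11 (58948920 to 58956830) held 3, and Hist4 on chromosome 6 (136801553 to 136804415) held Hist4h4 alone. Near-identical copies limit how reads can be assigned. The median gene had 49.3% of its 50-base windows in common with another annotated gene, and 27 of the 59 had more than 50%. H1 genes shared least (median 1.15%) and H2a and H3 genes most (64.8% and 61.95%). How the authors' counting treated reads that match several copies is not given in the sources used here. The split of reads among H2a, H2b, H3 and H4 copies is therefore uncertain. The annotation classes Hist3h2bb-ps as a pseudogene, and Hist1h1t encodes the H1 of the testis.

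The 4 libraries held 18456502 to 29620468 reads, so that a count of 0 allows at most 0.165 CPM (3 reads). Shh itself was at 3.15 and 2.42 CPM in Shh null, against 11.4 and 7.88 CPM in wild type. Its limma log2 fold change was −1.47 ± 0.21 (SE, adjusted p = 0.00615), lower in 2 of 2 Shh null libraries, and the limma call was lost without Shh null 1 (adjusted p = 0.0693) or without Shh null 2 (adjusted p = 0.0767). Limb mesenchyme genes were present in every library, Prrx1 at 654 and 613 CPM in Shh null and 431 and 468 CPM in wild type. Limma called 5 of 8 of these markers higher in Shh null, Prrx1 among them (adjusted p = 0.037), against 1.24% of all genes. For the histone genes the library labelled wild type 1 stood apart from the other 3, and results below are given with and without it.

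**Figure D1:**
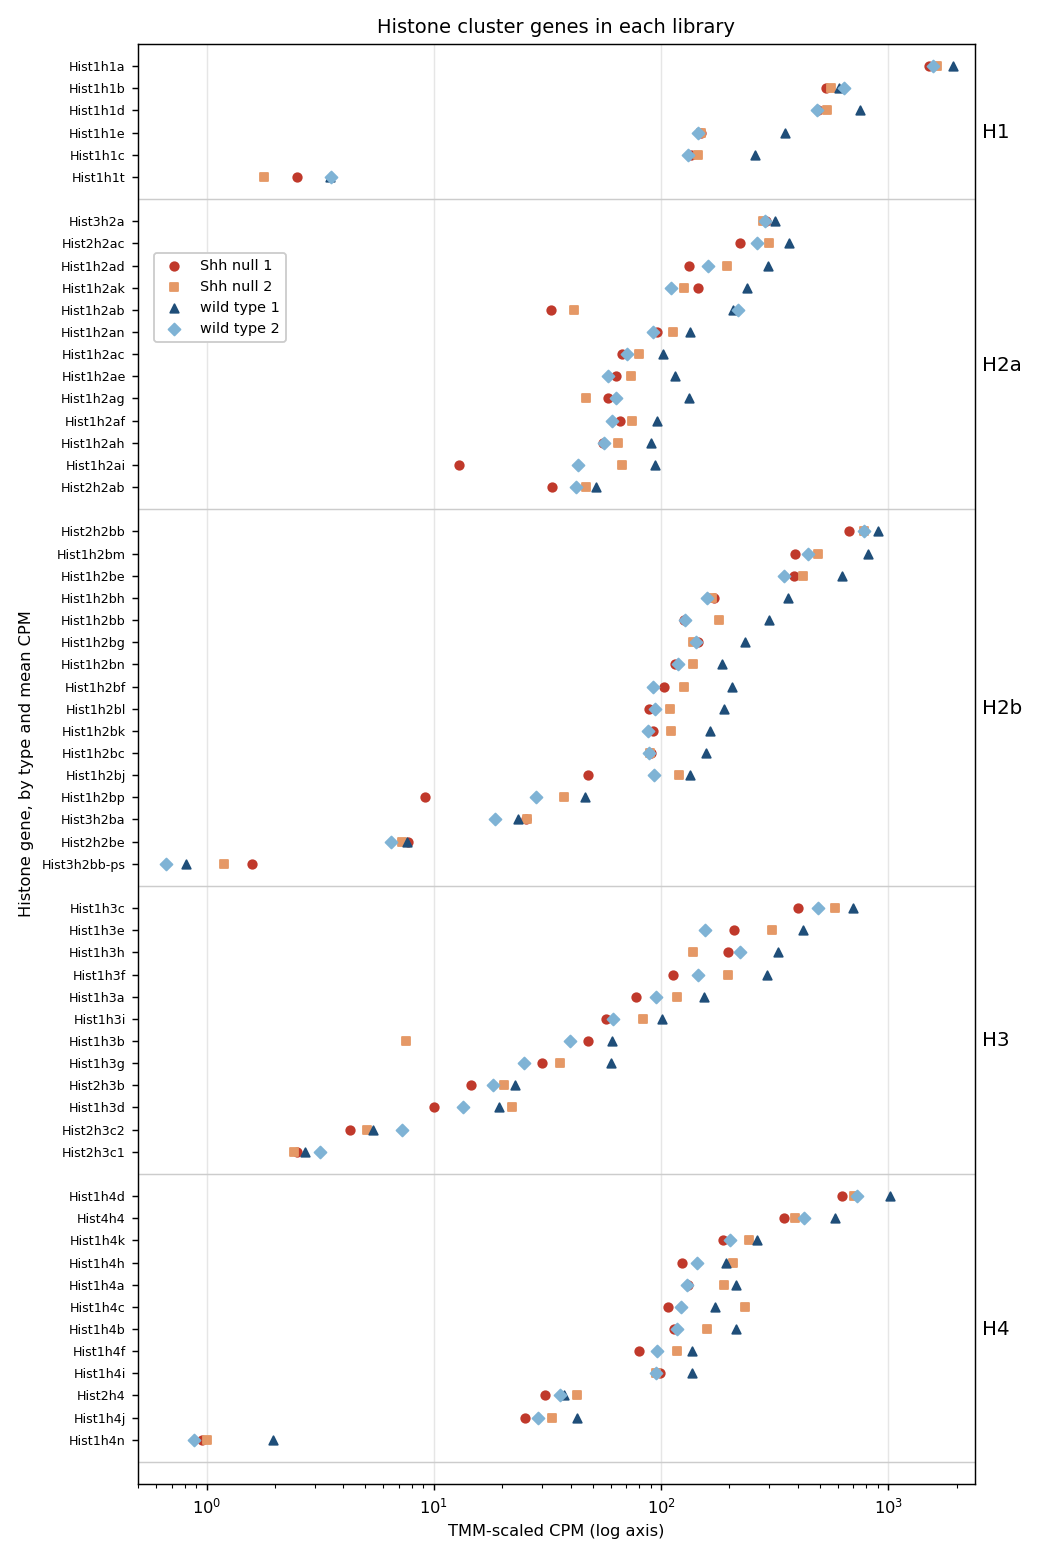
TMM-scaled CPM (log axis) of the 59 histone genes, grouped by type from H1 at the top to H4 at the bottom, with 1 symbol for each Shh null library (circles and squares) and each wild-type library (triangles and diamonds). The triangle of wild type 1 is the rightmost symbol in 47 of the 59 rows, and Hist1h2ab is the row in which both Shh null symbols lie far left of both wild-type symbols.

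The histone genes together took 0.999% and 1.16% of the reads in Shh null, against 1.51% and 1.04% in wild type. Their summed level was 9611 and 11444 CPM in Shh null, against 15687 and 10542 CPM in wild type. The Shh null libraries lay on either side of wild type 2, and wild type 1 was above all of them. The mean of the Shh null sums was 0.803 times that of the wild-type sums. Set against each wild-type library alone, it was 0.671 times wild type 1 and 0.999 times wild type 2. The sums are descriptions and carry no test, since the genes share reads, libraries and scale.

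Linker histone H1 genes had the highest single level. Hist1h1a was at 1519 and 1642 CPM in Shh null, against 1922 and 1573 CPM in wild type (log2 fold change −0.14 ± 0.13, SE). Hist1h1b was at 534 and 563 CPM in Shh null, against 610 and 638 CPM in wild type (−0.19 ± 0.10). Hist1h1b groups did not overlap, whereas Shh null 2 exceeded wild type 2 in Hist1h1a, and neither passed the test. Hist1h1c and Hist1h1e, 2 further H1 subtypes, showed the high library most plainly: Hist1h1e was at 150 and 149.5 CPM in Shh null, against 353 and 146 CPM in wild type. The 6 H1 genes summed to 2830 and 3042 CPM in Shh null, against 3903 and 2976 CPM in wild type.

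Among H2a genes, the 2 with the highest counts were outside the Hist1 cluster. Hist3h2a was at 289 and 280 CPM in Shh null, against 319 and 288 CPM in wild type (log2 fold change −0.09 ± 0.10), and its libraries spanned a narrower range than those of the other leading genes of any type. Hist2h2ac was at 222.5 and 300.2 CPM in Shh null, against 365 and 264 CPM in wild type (−0.26 ± 0.17). Summed over the 13 H2a genes, Shh null stood at 1275 and 1510 CPM, against 2242 and 1529 CPM in wild type. Without Hist1h2ab the sums were 1243 and 1469 CPM in Shh null, against 2035 and 1310 CPM in wild type, so that wild type 2 then lay between the Shh null libraries.

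H2b and H1 genes had the largest sums of the 5 types. Hist2h2bb was at 671 and 785 CPM in Shh null, against 898.5 and 781 CPM in wild type (−0.21 ± 0.12). Hist1h2bm was at 388 and 493 CPM in Shh null, against 818 and 445 CPM in wild type (−0.46 ± 0.23). Groups overlapped in both, through Shh null 2 and wild type 2. The 16 H2b genes summed to 2469 and 2948 CPM in Shh null, against 4353 and 2631 CPM in wild type.

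The H3 gene with the most reads, Hist1h3c, was at 401 and 582 CPM in Shh null, against 702 and 492 CPM in wild type (−0.28 ± 0.19). Hist1h3e was at 209 and 307 CPM in Shh null, against 421 and 157 CPM in wild type (−0.02 ± 0.36). In Hist1h3e the wild-type libraries were the highest and the lowest of the 4. Over the 12 H3 genes the sums were 1165 and 1518 CPM in Shh null, against 2171 and 1280 CPM in wild type.

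For H4, Hist1h4d was at 625 and 710 CPM in Shh null, against 1020 and 727 CPM in wild type (−0.37 ± 0.16). Hist4h4, the lone gene of its cluster, was at 348 and 390 CPM in Shh null, against 584 and 427 CPM in wild type (−0.44 ± 0.14, limma adjusted p = 0.149). Both Shh null libraries were below both wild-type libraries in each of these genes, and neither passed the limma test. Summed over 12 genes, H4 stood at 1872 and 2426 CPM in Shh null, against 3018 and 2126 CPM in wild type.

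**Figure D2:**
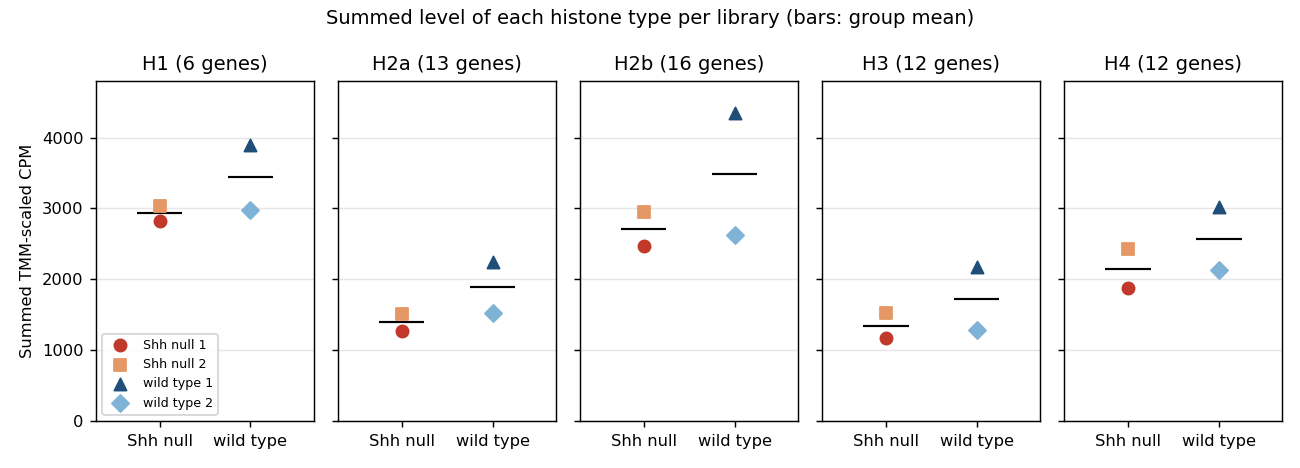
Summed TMM-scaled CPM of each histone type in the 2 Shh null libraries (left) and the 2 wild-type libraries (right), with a bar at each group mean. In all 5 panels the wild type 1 triangle is the highest point, and in H1, H2b, H3 and H4 the wild type 2 diamond lies between the Shh null points.

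Per kilobase of annotated exon, the levels spanned a wide range. Hist1h1a averaged 2133 CPM per kilobase in Shh null and 2359 in wild type, and Hist2h2bb, whose annotated model of 381 bases has all of its 50-base windows in another gene, averaged 1910 in Shh null and 2204 in wild type. Hist1h2bm (841 in Shh null, 1205 in wild type), Hist1h3c (780 in Shh null, 948 in wild type), Hist1h1b (738 in Shh null, 840 in wild type) and Hist1h4k (690 in Shh null, 745 in wild type) followed in order of the Shh null level. At the low end, Hist2h3c1 averaged 1.35 CPM per kilobase in Shh null and 1.6 in wild type. Hist1h4n, with 23 and 22 reads in Shh null and 56 and 16 reads in wild type, averaged 2.28 CPM per kilobase in Shh null and 3.31 in wild type. On the CPM scale Hist1h4n was at 0.954 and 1.01 in Shh null, against 1.96 and 0.881 in wild type, and Hist1h4m, outside the set, was at 0.124 and 0.229 in Shh null, against 0.211 and 0.386 in wild type. In H1, H2b, H3 and H4 the set thus held both abundant genes and genes close to the level limit.

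In the limma test, 1 of the 59 histone genes was called lower in Shh null and 0 higher, at an adjusted p under 0.05. The background was 1.24% of the 13224 genes tested called lower and 1.24% called higher. At an unadjusted p under 0.05, 6 histone genes were lower and 1 higher, against 9.02% and 9.5% of all genes. edgeR's quasi-likelihood test on the recovered reads called 1 lower (1.12% of all genes) and 0 higher (1.33% of all genes). DESeq2 called 2 lower (2.06% of all genes), Hist1h2ab and Hist4h4 (adjusted p = 0.0485), and 0 higher (1.91% of all genes). These shares put the histone genes near the background. In the authors' deposited table, 3 histone genes (5.08%) were lower at a false discovery rate under 0.05, against 1.68% of all rows. None (0) was higher, against 2.33% of all rows. The 3 were Hist1h2ab with a log2 fold change of −2.52, Hist1h2ag of −0.91 (false discovery rate 0.0191) and Hist1h3h of −0.71 (false discovery rate 0.0166).

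The direction was shared by most of the genes, and in the median it was lost without 1 library, wild type 1. The log2 fold change was negative in 55 of the 59, with a median of −0.25, against 50.1% negative and a median of −0.0005 over all genes tested. Both Shh null libraries were below both wild-type libraries in 9 histone genes (15.3%), against 25.0% of all genes, and above both in 2 (3.39%), against 25.1% of all genes. Without wild type 1 the median was 0.04, with 21 values negative and 38 positive. In that fit, Hist1h2ab was the single gene called lower (1.42% of all genes) and Hist1h3e the single gene called higher (2.05% of all genes), with a log2 fold change of 0.69 and an adjusted p of 0.00214. Without wild type 2 the median was −0.58, and 38 histone genes were called lower, against 3.15% of all genes, and 0 higher, against 2.92%. In either fit the lone wild-type library is assumed to vary as the Shh null libraries do. The median also moved with the Shh null libraries, to −0.11 without Shh null 1 and to −0.41 without Shh null 2.

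**Figure D3:**
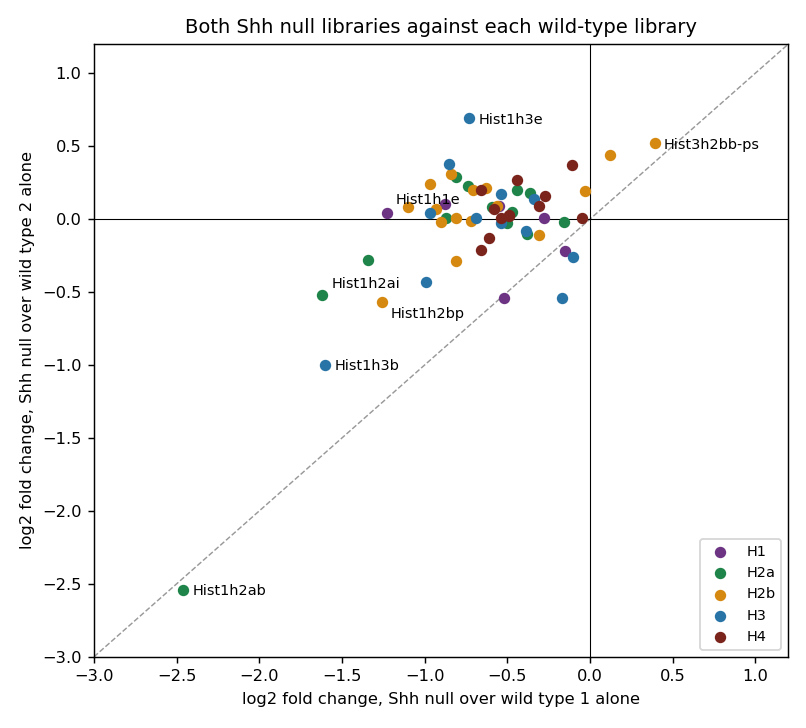
Limma log2 fold change of each histone gene with both Shh null libraries set against wild type 1 alone (horizontal axis) and against wild type 2 alone (vertical axis), coloured by type, with a dashed line of equality. Against wild type 1 alone 57 of the 59 values are negative and against wild type 2 alone 21 are, and Hist1h2ab is far below 0 on both axes.

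Wild type 1 was the highest of the 4 libraries in 47 of the 59 histone genes (79.7%), against 28.3% of all genes tested. The lowest library was Shh null 1 in 32 of them and wild type 2 in 20. The median ratio of wild type 1 to wild type 2 was 1.53, whereas the median over all genes tested was 0.007 on the log2 scale. By type this ratio was 1.39 in H1, 1.57 in H2a, 1.71 in H2b, 1.5 in H3 and 1.42 in H4. By cluster it was 1.64 in Hist1, 1.17 in Hist2 and 1.22 in Hist3, and Hist4h4 stood at 1.37. The excess was thus seen in every type and was smaller outside the Hist1 cluster. Split by features of the annotated transcript, the ratio differed less than between Hist1 and Hist2. It was 1.53 in the 39 genes with a stem-loop match and 1.52 in the 20 without one. In the 16 genes with more than 1000 bases of exon it was 1.43, and in the 43 shorter ones 1.57. The 27 genes with more than 50% of their 50-base windows in common with another gene had 1.58, and the other 32 had 1.44.

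The sums of 2 lists of other RNAs were also highest in this library. The 6 primitive erythroid markers found in the table (of 8, among them the embryonic globins Hbb-y, Hbb-bh1 and Hba-x) summed to 3834 and 6498 CPM in Shh null, against 11250 and 3010 CPM in wild type, and all 6 were highest in wild type 1. None of the 6 was called by limma. Of 8 RNAs that lack a poly(A) tail, a list drawn up after values had been seen, 5 were in the table. They summed to 2655 and 3204 CPM in Shh null, against 4843 and 2362 CPM in wild type. Wild type 1 was the highest library in 4 of the 5. Scarna2 was highest in Shh null 2, at 10.4 CPM, against 9.93 CPM in wild type 1. Rmrp, the RNA of the mitochondrial RNA-processing ribonuclease, was at 1427 and 1840 CPM in Shh null, against 2866 and 1312 CPM in wild type. Rpph1, the RNA of ribonuclease P, was at 439 and 488 CPM in Shh null, against 968 and 341 CPM in wild type. Summed, the erythroid markers and the RNAs without a poly(A) tail had the same order of libraries as the summed histone genes except that wild type 2 was the lowest. Their part in the histone values was not tested.

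**Figure D4:**
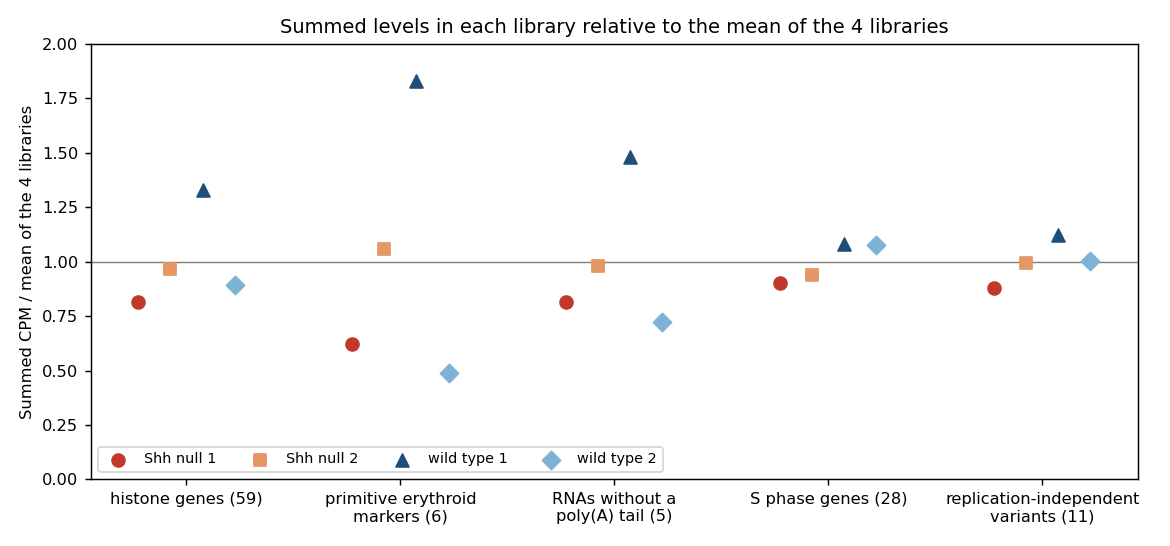
Summed CPM in each library divided by the mean of the 4 libraries, for the histone genes, primitive erythroid markers, RNAs without a poly(A) tail, S phase genes and replication-independent histone variants. Wild type 1 is far above the other libraries in the first 3 groups, while in S phase genes both wild-type libraries lie at about the same height above both Shh null libraries.

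Hist1h2ab is an H2A gene in the Hist1 cluster (chromosome 13, 23751126 to 23751598, plus strand, 1 exon of 473 bases). It was the 1 histone gene that limma called with all 4 libraries and genotype as the only term. It was at 32.8 and 41.4 CPM in Shh null, against 207 and 219 CPM in wild type. The groups lay far apart and the 2 wild-type libraries differed little, with wild type 2 the higher. Wild type 2 was the highest library in 5 histone genes, Hist1h2ab among them. The means were 37.1 ± 6.11 CPM in Shh null and 213 ± 8.42 CPM in wild type (SD, n = 2 each), and the limma log2 fold change was −2.50 ± 0.12 (SE, adjusted p = 7.09e-06), lower in 2 of 2 Shh null libraries. Pooled reads, 1695 in Shh null and 9873 in wild type, gave a level 5.74 times lower in Shh null (95% interval 5.45 to 6.05, exact binomial, counting error only). It was called by edgeR (adjusted p = 1.46e-05), by DESeq2 (adjusted p = 7e-68) and without any 1 of the 4 libraries, with log2 fold changes of −2.66 to −2.33. Of its 50-base windows, 58.0% occur in other annotated genes, so the number of reads that were its own is uncertain. Its start-site window and its stem-loop, printed above, held a CCAAT box, a TATAA, an octamer and a stem form that other H2a genes also have. Its nearest histone neighbour downstream is Hist1h3b (23752267 to 23752886, plus strand).

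Hist1h3b and 5 further genes, singled out after their values were seen, differed between the 2 Shh null libraries by more than 2-fold. They were 6 of the 55 histone genes with a mean of at least 5 CPM (10.9%), against 0.302% of the 10601 genes at that level. Hist1h3b, an H3 gene, was at 47.8 and 7.50 CPM in Shh null, against 61.0 and 39.9 CPM in wild type, and Shh null 1 stood 6.37-fold above Shh null 2 (95% counting interval 5.41 to 7.55). Hist1h2ai, an H2A gene, was at 12.9 and 67.4 CPM in Shh null, against 93.8 and 43.1 CPM in wild type, and Shh null 2 stood 5.22-fold above Shh null 1 (4.62 to 5.92). Hist1h2bp, an H2B gene, was at 9.16 and 37.5 CPM in Shh null, against 46.2 and 28.3 CPM in wild type, and Shh null 2 stood 4.09-fold above Shh null 1 (3.52 to 4.76). Single libraries were therefore low, Shh null 2 in Hist1h3b and Shh null 1 in Hist1h2ai and Hist1h2bp, while the other Shh null library lay within the wild-type range. The ratio of Shh null 2 to Shh null 1 was 2.51 in Hist1h2bj, 2.21 in Hist1h3d and 2.19 in Hist1h4c. The intervals cover counting error only, and 60.4% of the 50-base windows of Hist1h3b occur in other genes.

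None of the 6 was called in the fit of all 4 libraries with genotype as the only term. The log2 fold changes were −1.30 ± 0.60 for Hist1h3b (limma adjusted p = 0.28), −1.07 ± 0.59 for Hist1h2ai (adjusted p = 0.364) and −0.91 ± 0.48 for Hist1h2bp (adjusted p = 0.344). These are, after Hist1h2ab, the largest negative values among the histone genes, and each moved with single libraries. Without Shh null 1 limma called 2 histone genes lower (0.31% of all genes) and 0 higher (0.113%), and without Shh null 2 also 2 lower (0.454%) and 0 higher (0.295%). Without Shh null 1, Hist1h2ai stood at 0.08 and Hist1h2bp at 0.05, and without Shh null 2, Hist1h3b stood at −0.04. Against wild type 1 alone, all 3 were called lower, Hist1h3b at −1.60 (adjusted p = 0.000625), Hist1h2ai at −1.62 (adjusted p = 0.000131) and Hist1h2bp at −1.26 (adjusted p = 0.00168), and against wild type 2 alone none was. Hist1h3b was also called without Shh null 1 (−2.57, adjusted p = 0.0105) and Hist1h2bp without Shh null 2 (−1.87, adjusted p = 0.0375). Between the wild-type libraries, 11 of the 55 histone genes differed by more than 2-fold (20.0%), against 0.821% of the 10601 genes, and in all 11 wild type 1 was the higher.

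The set holds 10 divergent pairs of neighbouring genes, 172 to 301 bases apart, and in 3 of them the partners differed between the Shh null libraries. Hist1h2bl, whose start lies 278 bases from that of Hist1h2ai, had a ratio of Shh null 2 to Shh null 1 of 1.24, against 5.22 in Hist1h2ai. Hist1h2an, 242 bases from Hist1h2bp, had a ratio of 1.17, against 4.09 in Hist1h2bp. Hist1h2ag, 269 bases from Hist1h2bj, had a ratio of 0.798, against 2.51 in Hist1h2bj. In these 3 pairs the low value in 1 library was seen in 1 partner and not in the other. The share of 50-base windows found in other genes was 90.1% in Hist1h2ai, 82.8% in Hist1h2bl, 44.1% in Hist1h2bp and 85.8% in Hist1h2an. It was 59.4% in Hist1h2bj and 78.9% in Hist1h2ag, so the split of reads among copies is uncertain here too. In the other 7 pairs the partners' ratios lay between 0.755 and 1.47.

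**Figure D5:**
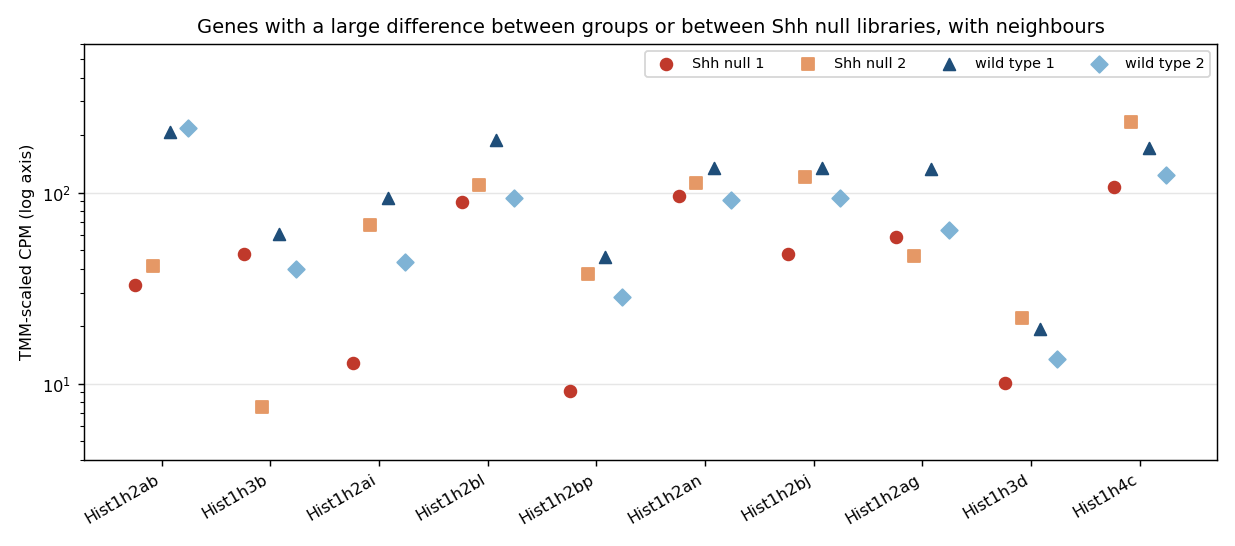
TMM-scaled CPM (log axis) in each library of Hist1h2ab, of the 6 genes whose Shh null libraries differ by more than 2-fold, and of Hist1h2bl, Hist1h2an and Hist1h2ag, each plotted right of its divergent partner. Hist1h2ab has both Shh null symbols low, while Hist1h3b, Hist1h2ai and Hist1h2bp have 1 low Shh null symbol each.

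The highest log2 fold changes were those of Hist3h2bb-ps, Hist3h2ba and Hist1h4c. Hist3h2bb-ps, the annotated pseudogene, was at 1.58 and 1.19 CPM in Shh null, against 0.807 and 0.661 CPM in wild type (0.45 ± 0.20, limma adjusted p = 0.265), from 12 to 38 reads a library. Hist3h2ba, an H2B gene, was at 25.3 and 25.8 CPM in Shh null, against 23.4 and 18.5 CPM in wild type (0.28 ± 0.14, limma adjusted p = 0.32). These are the 2 genes in which the Shh null libraries lay above both wild-type libraries. Hist1h4c was at 107 and 235 CPM in Shh null, against 172 and 123 CPM in wild type (0.13 ± 0.29). The sign for Hist1h4c followed its 1 high library, and without Shh null 2 the log2 fold change was −0.43.

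The other 8 genes in which both Shh null libraries lay below both wild-type libraries were Hist1h1b, Hist1h1t, Hist1h2ag, Hist1h3h, Hist1h4d, Hist2h3c1, Hist2h3c2 and Hist4h4. Hist1h3h, an H3 gene, was at 198 and 138.5 CPM in Shh null, against 329 and 223 CPM in wild type (−0.71 ± 0.20, limma adjusted p = 0.0952). Hist1h2ag, an H2A gene, was at 58.3 and 46.5 CPM in Shh null, against 133 and 63.6 CPM in wild type (−0.81 ± 0.27, limma adjusted p = 0.15). Of its 50-base windows 78.9% are shared with other genes, and of those of Hist1h3h 93.9%. Hist1h1t was at 2.49 and 1.78 CPM in Shh null, against 3.47 and 3.53 CPM in wild type (−0.53 ± 0.19). None of these passed limma's test in the fit of all 4 libraries with genotype as the only term.

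The genes that make, process and use histone mRNA were read from 4 lists. In the list for histone pre-mRNA processing and turnover, 0 of 17 passed limma's test in either direction (0 by edgeR and 0 by DESeq2). By limma's unadjusted p under 0.05, 5 were lower and 0 higher, against 9.02% and 9.5% of all genes. Slbp, which encodes the stem-loop binding protein, was at 297 and 340 CPM in Shh null, against 400 and 358 CPM in wild type (−0.25 ± 0.11). Npat was at 82.8 and 85.6 CPM in Shh null, against 95.5 and 92.3 CPM in wild type (−0.16 ± 0.10). The groups did not overlap in either. Of the 17 genes, 7 had both Shh null libraries below both wild-type libraries, against 25.0% of all genes. The reverse held in 3, against 25.1% of all genes. The differences in Slbp and Npat were both under 0.3 on the log2 scale. The largest in the list were Eri1, an exonuclease that trims the stem-loop end (78.9 and 93.6 CPM in Shh null, 110 and 108.5 CPM in wild type, −0.34 ± 0.11, limma adjusted p = 0.141), and Ncbp1, the large cap-binding subunit (210 and 214 CPM in Shh null, 250 and 285.5 CPM in wild type, −0.33 ± 0.10, limma adjusted p = 0.127).

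The list of replication-independent variants gave 0 calls among 11 genes by limma, edgeR and DESeq2. With an unadjusted limma p under 0.05, 2 were lower and 1 higher, against 9.02% and 9.5% of all genes. H2afz, which encodes the variant H2A.Z, was at 2586 and 3009 CPM in Shh null, against 3883 and 3295 CPM in wild type (−0.36 ± 0.15). H2afv, its paralog, was at 204 and 170 CPM in Shh null, against 113 and 165 CPM in wild type (0.44 ± 0.17, limma adjusted p = 0.191). The replacement gene H3f3b was at 530 and 550 CPM in Shh null, against 517 and 550.5 CPM in wild type. H1fx was at 4.81 and 3.25 CPM in Shh null, against 3.19 and 2.53 CPM in wild type (0.37 ± 0.21, limma adjusted p = 0.378). The sum over the 11 variants in wild type 1 was 1.12 times that in wild type 2, against 1.49 for the cluster genes. Single variants differed in this, and the ratio was 1.55 in H2afx. H2afx was at 115 and 111 CPM in Shh null, against 161.5 and 104 CPM in wild type. Wild type 1 was the highest library in 2 of the 11 variants, H2afz and H2afx.

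Histone chaperones and deposition factors also gave 0 calls among 16 genes by limma, edgeR and DESeq2. Here 2 were lower and 0 higher at an unadjusted limma p under 0.05, against 9.02% and 9.5% of all genes. Hat1, which acetylates new H4, was at 137 and 164 CPM in Shh null, against 200 and 189 CPM in wild type (−0.37 ± 0.11, limma adjusted p = 0.115). Asf1b, a chaperone of H3 and H4, was at 31.1 and 32.5 CPM in Shh null, against 41.5 and 39.5 CPM in wild type (−0.34 ± 0.11, limma adjusted p = 0.15). In both genes the groups did not overlap. Of the 16 genes, 7 had both Shh null libraries below both wild-type libraries, against 25.0% of all genes. The reverse held in 1, against 25.1% of all genes.

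Of 28 S phase genes, limma called 2 lower and 0 higher, against 1.24% of all genes in each direction. DESeq2 called 2 lower (2.06% of all genes) and edgeR 1 lower (1.12% of all genes). Counted by an unadjusted limma p under 0.05, 12 were lower and 0 higher, against 9.02% and 9.5% of all genes. Cdc6, which loads the replicative helicase, was at 120 and 121 CPM in Shh null, against 175 and 164 CPM in wild type (−0.48 ± 0.09, limma adjusted p = 0.0291), lower in 2 of 2 Shh null libraries. Ccne1, which encodes cyclin E1, was at 88.9 and 94.5 CPM in Shh null, against 121 and 133 CPM in wild type (−0.46 ± 0.10, limma adjusted p = 0.0457), lower in 2 of 2. Both calls were lost without either Shh null library, that of Cdc6 also without wild type 1 and that of Ccne1 also without wild type 2. The log2 fold change was negative in 27 of the 28, with a median of −0.22, and in 20 the Shh null libraries were both below both wild-type libraries, against 25.0% of all genes. Summed, these genes stood at 6216 and 6454 CPM in Shh null, against 7440 and 7407 CPM in wild type. The medians of the S phase list and of the histone genes were thus alike, −0.22 and −0.25, but the wild-type libraries were level in the S phase sum and 1.49-fold apart in the histone sum.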

How the data were processed

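RNA was extracted with TRIzol from forelimbs and sequenced on Illumina instruments, per the labels' protocols. The genotype label gave the groups and the titles the replicate numbers. Per the submitters' processing notes, TopHat2 2.0.9, SAMtools, HTSeq 0.5.4p5, edgeR 3.4.2 and build mm10 were used. Their settings, including strand and reads matching several places, go unstated in the sources used here.

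The authors deposited 1 signal value per gene and library, here called CPM. All values (100%, within 0.001 reads) were whole multiples of what 1 read is worth, and TMM factors recomputed from those reads matched the deposited scale (difference 0%). Reads per library were 23206944 and 21489093 in Shh null and 29620468 and 18456502 in wild type. Counting intervals (95%) and floors cover counting error only. The authors' own comparison table gave log2 fold changes, p-values and false discovery rates as deposited.

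Genes with at least 1 CPM in at least 2 libraries (13224, with 4488 below) were fitted on log2(CPM + 1) with limma 3.58.1 (intensity trend, genotype only, R 4.3.3), adjusted by Benjamini-Hochberg and called under 0.05. Fold changes on this scale understate those of low genes. Alternatives were edgeR 4.0.16 and DESeq2 1.42.0 on recovered reads, other scalings, pseudocounts, no filter, a replicate block and leaving out each library. The limma fit was tested on simulated counts drawn separately for each library. They held no shift of 1 library such as that of wild type 1, so the test does not bear on one. Coordinates, exon lengths, shared 50-base windows and stem-loops came from GENCODE M21, start-site windows from RefSeq by current or older symbol.

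Members and lists were chosen with earlier results of these data known. Given with a value in every library were members called by limma, the 2 of each type with the highest mean CPM, the 3 most negative and 3 most positive log2 fold changes, those next to the level limit, and in each companion list its called genes or the 2 largest changes. Others named were chosen after their values were seen. Of the marker lists, limma called 5 of 8 limb mesenchyme genes and 1 of 5 macrophage genes tested higher, against 1.24% of all genes. It called 0 of the surface ectoderm, primitive erythroid, endothelial, muscle precursor and neural genes.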

Additional observations from a re-analysis of the deposited data

How the results depend on the processing

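Leaving out 1 library gave 1 to 38 histone genes lower and 0 to 1 higher, and over all genes 41 to 416 lower and 15 to 386 higher, from 164 each. Without a filter these were 91 lower and 79 higher, and by DESeq2 273 and 253, with 2 histone genes lower.

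Same-numbered libraries deviated with a correlation of −0.203 and are not known to be paired. With the replicate number as a block, 4 histone genes (6.78%) and 1 S phase gene were lower, against 1.33% of all genes. In that fit 0 histone genes were higher, against 1.66% of all genes. The 4 histone genes called lower were Hist1h2ab, Hist1h2ag (limma adjusted p = 0.00443), Hist1h3b (adjusted p = 0.00753) and Hist1h3h (adjusted p = 0.00271). A crossed pairing, chosen after seeing the data, gave 19 histone genes lower, and 745 lower and 641 higher over all genes.

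S phase calls were 0 under quantile normalization, 0 without a filter, 1 by edgeR and 0 to 2 with 1 library left out. Leaving out 1 library gave 0 to 1 lower in the processing list, and 0 to 1 lower and 0 to 1 higher in the variants. The ratio of summed levels ran over 0.671 to 0.999 (all), 0.752 to 0.987 (H1), 0.621 to 0.911 (H2a), 0.622 to 1.03 (H2b), 0.618 to 1.05 (H3) and 0.712 to 1.01 (H4), in each case lowest without wild type 2 and highest without wild type 1.

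Among the genes chosen by the stated rule, the log2 fold change turned sign under quantile normalization for Hist1h1a (0.02), Hist1h3e (0.11) and Hist3h2a (0.01). With 1 library left out, the ranges that held a change of sign were −0.28 to 0.01 for Hist1h1a, −2.22 to 0.08 for Hist1h2ai, −0.73 to 0.69 for Hist1h3e, −0.43 to 0.69 for Hist1h4c and −0.58 to 0.07 for Hist1h4n. It turned without wild type 1 for Hist1h1a (0.01), Hist1h3e (0.69) and Hist1h4n (0.07). Without Shh null 1 it turned for Hist1h2ai (0.08) and Hist1h3e (0.25). For Hist1h4c it turned without Shh null 2 (−0.43) and without wild type 2 (−0.11). Of the other histone genes given in every library, Hist1h2bp also turned without Shh null 1 (0.05) and Hist1h1e without wild type 1 (0.04). The cause was not tested. Hist1h2ab kept its direction and its call under each of these alternatives but the crossed pairing, for which single genes were not read.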
